A study of Mus musculus with 22 samples.

Results

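Most of the genes described here encode general transcription factors or subunits of RNA polymerases I, II and III. All were examined for nearby peaks of CREB1 and C/EBP beta, DNA-binding transcription factors, in mouse mpkCCD cells. Members were chosen by symbol from the RefSeq protein-coding genes of mm10: Tbp, and every gene named Gtf, Taf, Polr1, Polr2 or Polr3 with a number or subunit letter, without the Tafa genes. This gave 76 of 21631 protein-coding genes on the autosomes and X. Chosen by name, these 76 include Taf15 and Polr2m, which fell outside the groups by role. They also include Taf5l and Taf6l, relatives that belong to the coactivator SAGA. Within each peak list, a member counted as near a peak when a peak centre lay within 5000 bp of either end of the gene. Members near a peak were thus selected on the peak positions themselves, so their counts and distances are a description, given beside the same share over all genes and with no test.

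The mpkCCD line (clone 11) was derived from the mouse cortical collecting duct and carries a vasopressin response. Cells on permeable supports, kept without serum and hormones, received the V2 receptor agonist dDAVP at 0.1 nM or its vehicle for 30 min before crosslinking. Chromatin was precipitated with an antibody to CREB1 (4 samples per treatment) or to C/EBP beta (2 per treatment), with 10 input libraries, 2 of them named for both antibodies. All cells were of 1 clone, and the labels number the experiments without saying whether each was its own culture. The files are 4 peak lists, 1 per antibody and treatment, with 785 CREB1 peaks after vehicle, 406 after dDAVP, and 209 and 2401 for C/EBP beta. Depth is unknown and no list gives values per replicate, so a gene missing from a list had no peak recorded there, which says nothing of binding below the calling threshold. The CREB1 list was shorter after dDAVP and the C/EBP beta list longer, and differences in members between treatments cannot be told apart from how many peaks were called.

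RNA polymerase II starts transcription at a core promoter with the help of TFIID, which holds the TATA-binding protein TBP and its associated factors (TAFs), and of TFIIA, TFIIB, TFIIE, TFIIF and TFIIH. TFIIH opens the promoter and also works in DNA excision repair. Polymerase I makes ribosomal RNA with the factor SL1, polymerase III makes tRNA and other small RNAs with TFIIIB and TFIIIC, and some subunits belong to all of these enzymes. CREB1 binds the cAMP response element (CRE), TGACGTCA in its full form, of which TGACG is the core. In the collecting duct, vasopressin acts through the V2 receptor and cAMP.

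The promoters in which these letters meet a peak are shown first. RefSeq promoter entries of GRCm38.p6, running from 250 bases before to 50 bases from the start on, matched 66 of the 76 members with 78 promoters. Among the members near a peak, no entry matched Polr2k, Taf2 or Taf7. Of the matched members, 3 held a full CRE (searched on both strands, on which it reads the same), namely Taf11, Gtf2f1 and Gtf3c1. Capitals mark the full CRE in the sequences below, each written 5′ to 3′ along the gene's strand.
Taf11, minus strand, chr17:27907745-27907844: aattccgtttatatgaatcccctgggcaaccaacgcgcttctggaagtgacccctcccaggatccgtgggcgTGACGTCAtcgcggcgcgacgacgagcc
Gtf2f1, minus strand, chr17:57011419-57011518: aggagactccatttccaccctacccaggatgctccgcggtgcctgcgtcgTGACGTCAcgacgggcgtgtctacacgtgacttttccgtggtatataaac
Gtf3c1, minus strand, chr7:125707761-125707860: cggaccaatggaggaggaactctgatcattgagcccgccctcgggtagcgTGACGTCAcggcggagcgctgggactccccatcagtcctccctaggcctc

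The CRE of Taf11, which encodes a histone-fold TAF, began at position -28 (counted from the annotated start, negative upstream) and lay inside the CREB1 peak of both lists. Its middle was 11 bp from the peak centre after vehicle and 0 bp after dDAVP. The CRE of Gtf2f1, which encodes the large subunit of TFIIF, began at position -180. It also lay inside both CREB1 peaks, 9 bp from the centre after vehicle and 22 bp after dDAVP. Gtf3c1, the largest subunit of TFIIIC, held its CRE at position -122 and had no CREB1 peak near it. The closest CREB1 centre was 5920132 bp away after vehicle and 7107843 bp away after dDAVP.

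The core TGACG was present without the full CRE in other members with a CREB1 peak. The stretches below were chosen to show it before the start of Taf13, Gtf2h3 and Gtf2h5, with capitals on the core, which reads CGTCA where it lies on the opposite strand.
Taf13, plus strand, chr3:108571599-108571698: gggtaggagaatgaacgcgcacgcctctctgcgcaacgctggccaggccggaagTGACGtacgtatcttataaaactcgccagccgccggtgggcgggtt
Gtf2h3, plus strand, chr5:124579048-124579147: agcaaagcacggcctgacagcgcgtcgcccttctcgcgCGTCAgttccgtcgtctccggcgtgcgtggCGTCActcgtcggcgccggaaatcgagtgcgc
Gtf2h5, plus strand, chr17:6079728-6079827: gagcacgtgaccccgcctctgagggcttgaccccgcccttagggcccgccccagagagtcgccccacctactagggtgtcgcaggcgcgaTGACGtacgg

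All 100 bases of each of these 3 stretches lay under the CREB1 vehicle peak. In Taf13 a core began at position -46 and another at -136, the latter outside the printed stretch. Gtf2h3 had cores at -62 and -32, and Gtf2h5 had one at -10 from the more upstream of its annotated starts. Over members, 9 promoters of 8 genes overlapped a CREB1 vehicle peak, and 8 of the 9 held the core, against 20 of the other 69 member promoters (29.0%). The one without it belonged to Gtf2h1, whose peak was centred 376 bp before the start, outside the promoter entry. Most of that peak was therefore not searched. Both Gtf2h5 promoters held the same core, and the Gtf2e1 core ran past the edge of its peak. Among all 856 promoters that overlapped a CREB1 vehicle peak 84.9% held the core and 23.0% the full CRE, and among all 32851 promoters 20.8% and 1.79% did. Median GC content was 58.7% in the 9 promoters, 59.3% in the other 69 and 52.7% in all promoters. A match describes the letters only.

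CREB1 peaks after vehicle were near 13 of the 76 members (17.1%), where 5.05% of all protein-coding genes had one. After dDAVP they were near 6 members (7.89%), where 2.67% of all genes had one. Grouped by name alone, the factor genes (with Taf15, Taf5l and Taf6l) and the polymerase genes (with Polr2m) differed in their counts. After vehicle 12 of 48 Gtf, Taf and Tbp genes (25.0%) and 1 of 28 Polr genes (3.57%) had a peak. After dDAVP these were 5 of 48 (10.4%) and 1 of 28 (3.57%). The difference between the gene groups was not tested, since the peaks define the counts. After vehicle the centres were 4 to 1585 bp away from the nearer gene end, with a median of 40 bp, and 9 of the 13 peaks spanned the gene end.

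**Figure D1:**
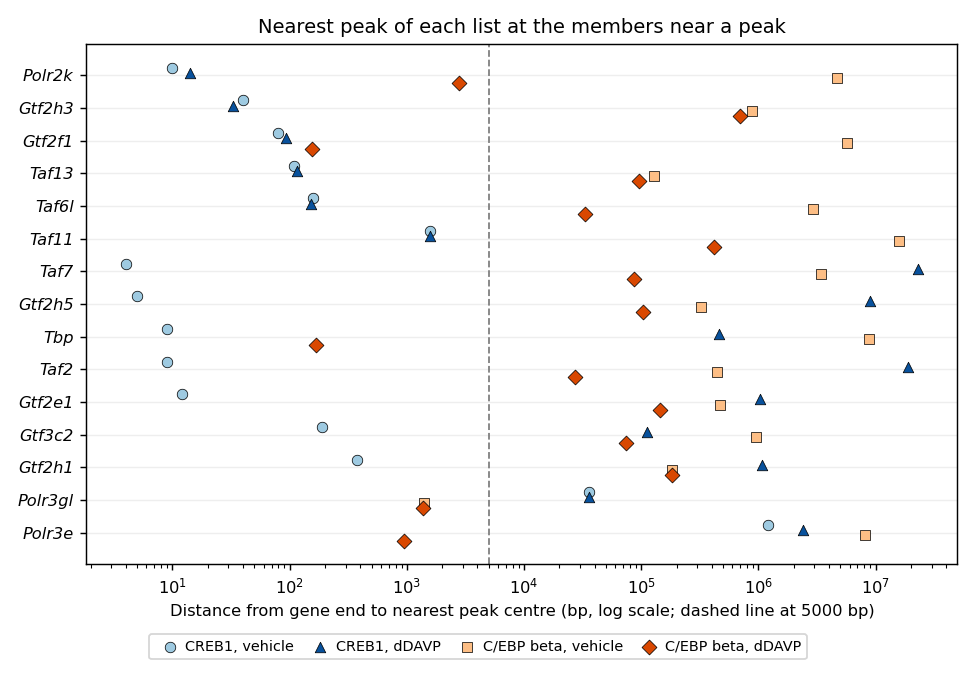
Distance in bp (log scale) from the nearer end of each of the 15 members near a peak to the nearest peak centre of each list. Symbols left of the dashed line at 5000 bp lie within the rule's distance; 6 members have both CREB1 symbols there, 7 have the CREB1 vehicle symbol without the dDAVP one, and Polr3gl and Polr3e only C/EBP beta symbols.

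Among Tbp and the TFIID TAFs, 5 of 18 genes had a CREB1 peak after vehicle and 2 after dDAVP (5.05% and 2.67% of all genes). Tbp, the subunit that binds the TATA box, had a vehicle peak of 300 bp (chr17:15499748-15500047) whose centre was 9 bp past the start, and no dDAVP peak within 5000 bp. Taf2, a large TFIID subunit, had a vehicle peak of 159 bp centred 9 bp inside the gene's higher end. This was one of the narrowest of the list, at rank 780 of 785 by width. Taf7, which encodes another TFIID subunit, had a vehicle peak of 292 bp centred 4 bp inside its higher end. Neither Taf2 nor Taf7 had a CREB1 peak nearby after dDAVP.

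Taf11 and Taf13 encode partners that pair through histone folds within TFIID, and both had a CREB1 peak in both lists. The Taf13 peak was 404 bp wide after vehicle (chr3:108571389-108571792) and 260 bp after dDAVP, with centres 109 and 115 bp before the start. The Taf11 peak was 363 bp wide after vehicle (chr17:27907577-27907939) and 272 bp after dDAVP. Its centres lay 1585 and 1574 bp inside the gene's higher end, but at -14 and -25 from a more internal annotated start of Taf11. Among the other TFIID genes, Taf1, Taf7l and Taf9b lie on chromosome X, where neither CREB1 list held a peak.

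Of the relatives of TAFs that belong to the coactivator SAGA, Taf6l had a CREB1 peak in both lists and Taf5l had none. The Taf6l peak (240 bp after vehicle and 214 bp after dDAVP) lay 157 and 153 bp inside the end opposite to the gene's start, 11805 and 11809 bp from that start. It was centred 44 and 40 bp before the start of Tmem179b, a neighbour on the same strand. Gene distance thus assigned to Taf6l a peak at another gene's promoter.

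In TFIIH, CREB1 peaks were near 3 of the 5 Gtf2h genes after vehicle and 1 after dDAVP (5.05% and 2.67% of all genes). Each of the 3 vehicle peaks also had a neighbour's end within 1000 bp (Eif2b1, Hps5 or Serac1, described below). It thus cannot be assigned to 1 gene. CREB1 peaks were near 0 of the 5 other TFIIH subunit and kinase genes (Ercc2, Ercc3, Cdk7, Ccnh and Mnat1). Gtf2h3, a core subunit, had a vehicle peak of 422 bp (chr5:124578898-124579319), rank 67 of 785 by width. Its dDAVP peak of 365 bp ranked 29 of 406, and the centres were 40 and 33 bp before the start. Gtf2h5, the smallest core subunit, had a vehicle peak of 319 bp centred 5 bp before the start. Gtf2h1, another core subunit, had a vehicle peak of 291 bp centred 376 bp before the start and not reaching it. Gtf2h2 and Gtf2h4 had none, and neither did Gtf2h1 and Gtf2h5 after dDAVP.

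In the other initiation factors of polymerase II, Gtf2e1, the large subunit of TFIIE, had a vehicle peak of 225 bp centred 12 bp past the start. Gtf2f1 had a CREB1 peak of 367 bp after vehicle (chr17:57011291-57011657) and of 180 bp after dDAVP, centred 80 and 93 bp beyond the gene's higher end and at -186 and -199 from the start of its promoter entry. All 3 TFIIA genes, Gtf2b and the 3 genes of the TFII-I family had no CREB1 peak within 5000 bp. The nearest centre was 4621693 bp from Gtf2b and 746448 bp from Gtf2i after vehicle.

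For polymerase III, 1 of the 7 genes of TFIIIA and TFIIIC had a CREB1 peak after vehicle, where 5.05% of all genes had one. Gtf3c2, a TFIIIC subunit, had one of 228 bp after vehicle, centred 189 bp past the start inside the gene, and none after dDAVP. The only one of the 28 Polr genes with a CREB1 peak was Polr2k, which encodes a small subunit common to polymerases I, II and III. Its peak was 257 bp wide after vehicle (chr15:36173892-36174148) and 201 bp after dDAVP, with centres 10 bp inside and 14 bp outside the gene's lower end. None of the 5 Polr1 and 10 Polr3 genes had a CREB1 peak, nor did the 4 TAF genes of SL1 (Taf1a, Taf1b, Taf1c and Taf1d). Tbp was counted with TFIID. Polr2a, the catalytic subunit of polymerase II, was 61546 bp from the nearest vehicle centre.

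**Figure D2:**
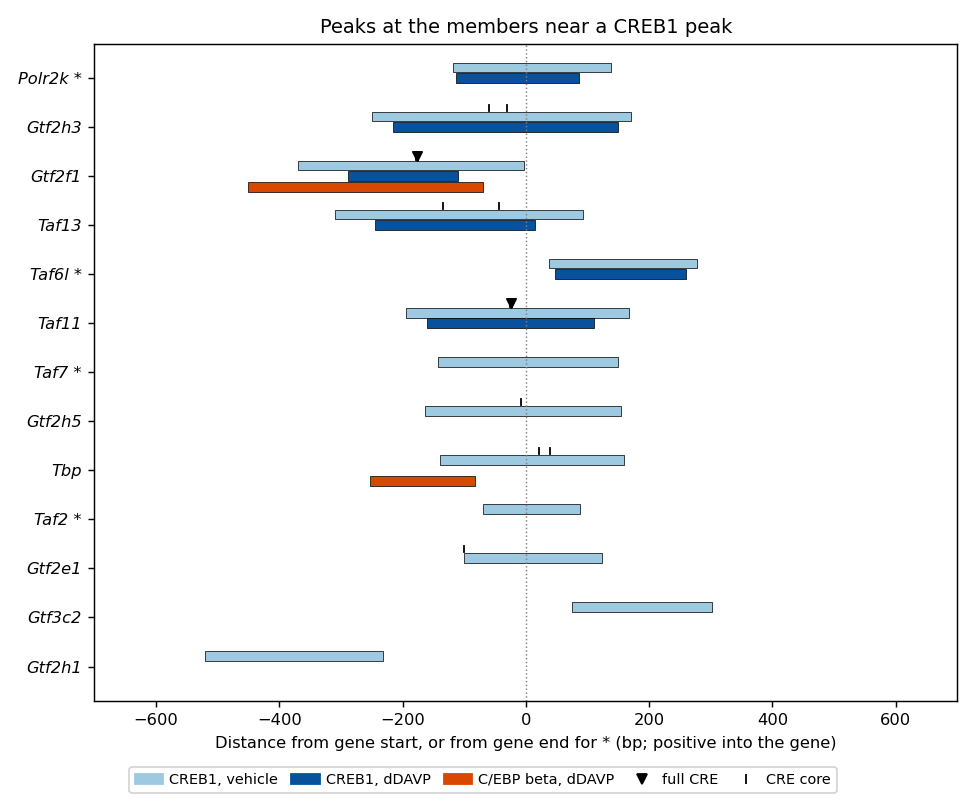
Extent of each peak at the 13 members near a CREB1 peak, in bp from the annotated start (or, for the 4 genes marked with a star, from the nearer gene end), positive into the gene. Bars are CREB1 vehicle, CREB1 dDAVP and C/EBP beta dDAVP peaks. Triangles are full CREs, and ticks are cores in the promoter entries, those within a full CRE or outside a peak included. The C/EBP beta bars appear at Gtf2f1 and Tbp, and the one at Polr2k lies outside the range drawn.

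All 6 members with a CREB1 peak after dDAVP had an overlapping one after vehicle: Taf13, Gtf2h3, Polr2k, Taf11, Gtf2f1 and Taf6l. That is 6 of the 13 near a vehicle peak (46.2%), where 51.8% of all genes near a CREB1 vehicle peak had an overlapping dDAVP peak there. From the dDAVP side such overlap was common: 577 genes were near a dDAVP peak, and 566 near a vehicle peak that overlapped one. The vehicle widths of the 6 members ran from 240 to 422 bp with a median of 365 bp, and those of the other 7 from 159 to 319 bp with a median of 291 bp. The ranges overlapped. Each of the 6 peaks was narrower after dDAVP, as were 390 of all 396 CREB1 vehicle peaks that overlapped exactly 1 dDAVP peak (98.5%). The part of peak calling in this narrowing was not tested. Within their own lists the 13 vehicle peaks had a median width of 292 bp against 290 bp for all, and the 6 dDAVP peaks one of 237 bp against 250.5 bp.

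Several of these peaks stood between or over a pair of genes. After vehicle 5 of the 13 member peaks (38.5%) had another protein-coding gene end within 1000 bp of the centre, where 22.6% of all placed CREB1 vehicle peaks had at least 2 gene ends of different genes that close. These shares are not like for like, since member peaks were chosen for lying near a gene end and the placed peaks were not. The neighbours were Eif2b1 for Gtf2h3, Hps5 for Gtf2h1, Rabl3 for Gtf2e1, Serac1 for Gtf2h5 and Tmem179b for Taf6l. In the first 4 the neighbour starts on the opposite strand. The Gtf2h3 centre was 23 bp past the start of Eif2b1, which encodes a subunit of the exchange factor of translation initiation. The Gtf2h1 centre was 163 bp past the start of Hps5, and those of Gtf2e1 and Gtf2h5 were at -117 and -84 from the starts of Rabl3 and Serac1. These peaks cannot be assigned to one gene of the pair.

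C/EBP beta peaks were near 1 member after vehicle (1.32%; 0.513% of all genes) and near 5 after dDAVP (6.58%; 5.01% of all genes). The share after dDAVP was thus close to the background. Of these 5, 3 were polymerase genes (10.7% of 28) and 2 were factor genes (4.17% of 48). The members were Polr3gl in both lists and Polr3e, Polr2k, Tbp and Gtf2f1 after dDAVP alone, and 111 of 111 genes near a vehicle peak (100%) had an overlapping dDAVP peak. The deposited C/EBP beta score, which is the authors' own and has no stated scale, ranks peaks within 1 list only.

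Polr3gl, a paralog of Polr3g that takes its place in one form of polymerase III, had a C/EBP beta peak of 232 bp after vehicle (chr3:96576366-96576597) and of 367 bp after dDAVP. The centres lay 1391 and 1386 bp beyond the end of the gene opposite to its start. The peak scored 124 after vehicle, rank 112 of 209, and 921 after dDAVP, rank 158 of 2401. Of all 209 C/EBP beta vehicle peaks paired with an overlapping dDAVP peak, 0 were narrower after dDAVP. The greater width at Polr3gl is therefore not shown to be particular to this gene, and its scores cannot be compared between the lists. The part of peak calling in the widths was not tested. Polr3e, another polymerase III subunit, had a dDAVP peak of 209 bp inside the gene, 946 bp past the start, with a score of 105 against a list median of 197. The peak near Polr2k, 222 bp wide with a score of 162, lay 2784 bp beyond the higher end of the gene, at the other end from its CREB1 peak.

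The remaining C/EBP beta peaks, at Gtf2f1 and Tbp, were at the promoter. The Gtf2f1 peak was 383 bp wide (chr17:57011357-57011739) and scored 902, rank 163 of 2401. The Tbp peak was 172 bp wide (chr17:15499635-15499806), centred 168 bp before the start, and scored 63, rank 2315 of 2401. The C/EBP motif TTGCNNAA, searched on both strands, was in 5 of the 66 members with a promoter entry (Taf1a, Polr2c, Polr2m, Taf9b and Taf7l). Counted by promoter this was 5 of 78 (6.41%), against 10.8% of all promoters. None of those 5 members had a C/EBP beta peak within 5000 bp, and neither the Gtf2f1 nor the Tbp promoter entry held the motif. The Gtf2f1 peak was centred at -260 from the start, outside its promoter entry. Part of that peak, the centre included, was therefore not searched. The motif was present in 36.5% of the 351 promoters that overlapped a C/EBP beta dDAVP peak.

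**Figure D3:**
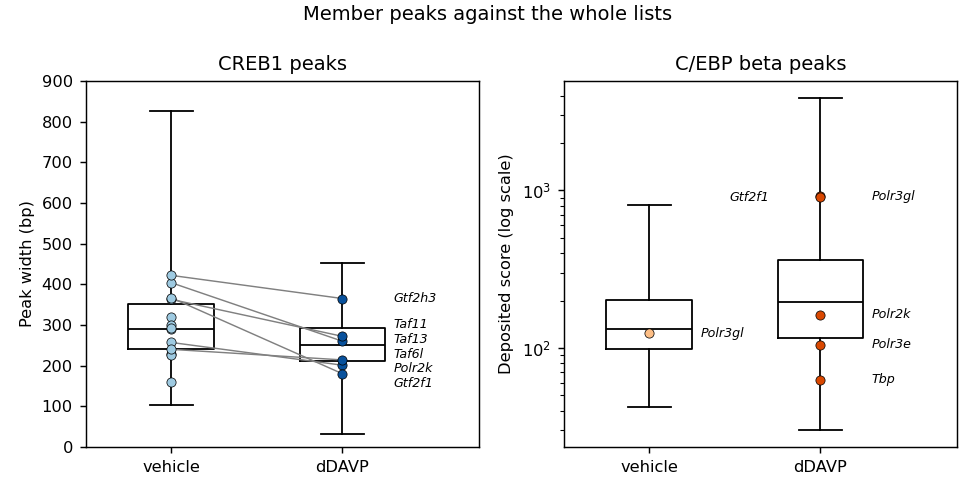
Left, width in bp of the member CREB1 peaks (points) over all peaks of each list (box, quartiles and median; whiskers, full range), with lines joining the 6 members found in both. Right, the deposited C/EBP beta score (log scale) in the same form; Polr3gl and Gtf2f1 stand at 921 and 902 after dDAVP, above the upper quartile, and Polr3e, Polr2k and Tbp stand below the median of 197.

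Gtf2f1 and Polr2k were near peaks of both factors after dDAVP (2 of 76, 2.63%; 0.333% of all genes), and no member was after vehicle (0.0601% of all genes). At Gtf2f1 the CREB1 and C/EBP beta dDAVP peaks overlapped by 180 bp, the whole of the CREB1 peak, and their centres were 61 bp apart. The CRE printed above lay inside both, 83 bp from the C/EBP beta centre. In the 2 lists as a whole 20 of 406 CREB1 dDAVP peaks overlapped a C/EBP beta dDAVP peak. At Polr2k the centres were 5800 bp apart.

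Tbp had a CREB1 peak after vehicle and a C/EBP beta peak after dDAVP, and these overlapped by 59 bp although they come from different treatments. Those shared bases are shown because they hold neither the CRE core nor the C/EBP motif.
Tbp, plus strand, chr17:15499748-15499806: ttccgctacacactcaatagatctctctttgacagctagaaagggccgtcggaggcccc
The Tbp promoter entry held the CRE core 20 and 37 bases past the start, on opposite strands, inside the CREB1 vehicle peak and outside the C/EBP beta peak.

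In all, 15 of the 76 members (19.7%) were near a peak in at least 1 list, where 9.39% of all genes were, and 61 were near none. The limit of 5000 bp fell in a gap for these genes. The farthest member inside it was 1585 bp away for CREB1 after vehicle (Taf11) and 2784 bp for C/EBP beta after dDAVP (Polr2k). The closest outside for CREB1 after vehicle were Taf5 (7283 bp), Polr3f (14423 bp) and Polr2g (18618 bp), whose peaks were centred 27, 27 and 44 bp from ends of Pdcd11, Sec23b and Tmem179b. After dDAVP they were Polr3f (14448 bp), Polr2g (18622 bp) and Polr3gl (35692 bp). For C/EBP beta they were Taf1d (40908 bp) after vehicle, and Taf8 (8915 bp), Gtf2h2 (10488 bp) and Gtf2a1 (10559 bp, inside the gene, with a score of 39) after dDAVP. Taf1, the largest TFIID subunit, had its closest C/EBP beta dDAVP centre at 38134 bp.

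**Figure D4:**
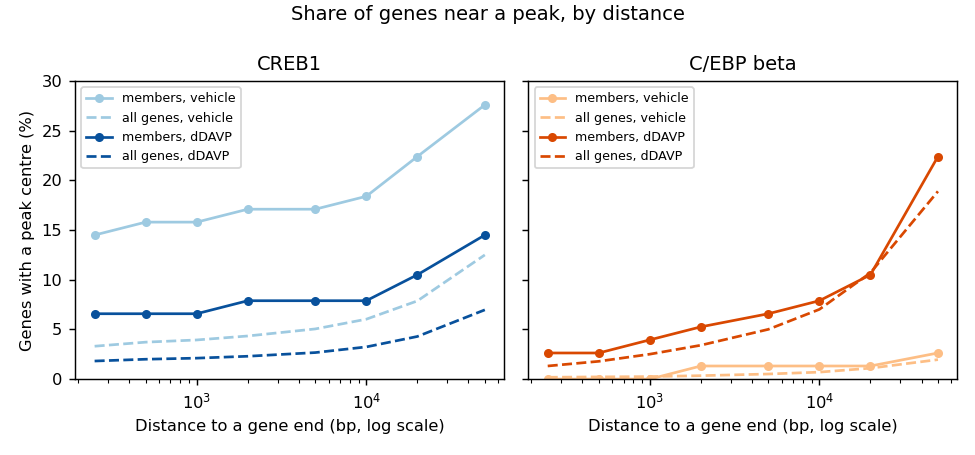
Percent of genes with a peak centre within a given distance of a gene end (log scale), for the 76 members (solid lines, points) and all 21631 protein-coding genes (dashed lines), by factor and treatment. CREB1 shares of the members start at 14.5% (vehicle) and 6.58% (dDAVP) at 250 bp and stay above those of all genes, while C/EBP beta shares after dDAVP run close to the dashed line.

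With distance, the CREB1 vehicle share of members went from 14.5% at 250 bp to 17.1% at 5000 bp and 27.6% at 50000 bp, against 3.31%, 5.05% and 12.5% of all genes. The C/EBP beta dDAVP share went from 2.63% to 6.58% and 22.4%, against 1.32%, 5.01% and 18.9%. Of the 21 members near a CREB1 vehicle peak at 50000 bp, 11 were within 250 bp and 13 within 5000 bp. Over all genes these were 715 and 1092 of 2705. Of the 17 members near a C/EBP beta dDAVP peak at 50000 bp, 2 were within 250 bp and 5 within 5000 bp. Over all genes these were 286 and 1084 of 4092, so the share within 5000 bp was much like that of the members.

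Partners of this machinery were read from 9 further lists of 121 genes, none of them members. In the vehicle list of CREB1 21 of the 121 had a nearby peak (17.4%, where 5.05% of all genes had one), and in its dDAVP list 14 (11.6%, against 2.67%). For C/EBP beta these were 0 after vehicle, against 0.513% of all genes, and 7 after dDAVP (5.79%), close to the 5.01% of all genes. Mediator, which links activators to polymerase II, had CREB1 peaks at 6 of 33 genes after vehicle and 5 after dDAVP. Med6, Med9, Med27, Med20 and Med26 had one in both lists, at 8, 10, 17, 53 and 1745 bp after vehicle, and Med31 had one in the vehicle list at 345 bp.

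Among initiation partners of polymerase III, 4 of 10 genes had a CREB1 peak after vehicle and 3 after dDAVP (5.05% and 2.67% of all genes). Snapc5 and Snapc1, subunits of the complex that activates small nuclear RNA genes, and Bdp1, a TFIIIB subunit, had one in both lists, at 1, 11 and 21 bp after vehicle. Brf2, a TFIIB relative used at some polymerase III promoters, had one after vehicle at 35 bp. Of 5 partners of polymerase I, Znrd1, itself a polymerase I subunit, had a CREB1 peak after vehicle at 59 bp and a C/EBP beta peak after dDAVP at 2601 bp.

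Pausing and elongation factors had CREB1 peaks at 5 of 30 genes after vehicle (Larp7, Nelfe, Wdr61, Ccnt1 and Nelfa) and at 3 after dDAVP (Ccnt1, Larp7 and Nelfa). For this and the smaller lists below, the CREB1 shares of all genes were 5.05% after vehicle and 2.67% after dDAVP. Differences from them were not tested. After dDAVP 6 of the 30 had a C/EBP beta peak nearby, where 5.01% of all genes had one, and the difference was not tested. These were at Hexim1, Aff1, Ssrp1, Larp7, Ccnt1 and Ctr9, with scores of 99 to 364. Ctr9, the most distant, was named after its value was seen. Hexim1, Larp7 and Ccnt1 encode parts of the complexes that hold or form the elongation kinase P-TEFb. Integrator had CREB1 peaks at Ints12 in both lists and Ints3 after vehicle (2 and 1 of 14). Mitochondrial transcription genes had them at Mterf1a in both and Tfb1m after vehicle (2 and 1 of 5). Among SAGA genes, only Atxn7l3 (1 of 14) had one in both lists, 4420 bp away after vehicle and 4391 bp after dDAVP. The 5 other TFIIH genes and the 5 relatives and regulators of TBP had no peak of either factor.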

How the data were processed

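ChIP-seq peak lists of CREB1 and C/EBP beta from mpkCCD cells were used as deposited, 1 list per antibody and treatment, grouped by sample titles. BWA, SAMtools, MACS2, bedtools and mm10 are named in the submitters' processing notes without versions or roles, and the way replicates were joined into a list is not given in the sources used here. Positions and scores were read as they stood. The authors deposited peak positions, and for C/EBP beta a score per peak of unstated scale; every C/EBP beta peak name, as deposited, refers to replicate 1 and to MACS2 settings (bandwidth 300, 1 duplicate, q 0.01).

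Genes came from the RefSeq table of GRCm38.p6 (the mm10 assembly), which has no strand; starts and strands came from the RefSeq promoter table. Distances run from the peak centre to either gene end. Positions are in mm10 and count from 1; promoter positions count from the start, the base before it being -1. Peaks counted as overlapping at 1 bp or more. Python 3.11.15 and pandas 2.3.3 were used, and the assignment was checked on made-up data. Members and gene lists were chosen with earlier results of these data known. No test was made, since each group has 1 list without values per replicate and the peaks themselves choose the genes.

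Named were all members near a peak, up to 3 per list just beyond 5000 bp and no farther than 50000 bp, Tbp, Polr2a, Gtf2b, Taf1, Gtf2i and Gtf3c1, and up to 5 genes per partner list and peak list, the closest first.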

Additional observations from a re-analysis of the deposited data

How the results depend on the processing

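Of 30 alternatives, 15 gave a count within 1.5 times the value reported. At 1000 bp the members near a C/EBP beta peak were 0 after vehicle and 3 after dDAVP (0.254% and 2.51% of all genes). At 50000 bp the members were 21 and 11 for CREB1 after vehicle and dDAVP (12.5% and 6.97% of all genes), and 2 and 17 for C/EBP beta (1.96% and 18.9%). With only the gene nearest to each peak, 9 members were near a CREB1 peak after vehicle and 3 after dDAVP (3.43% and 1.79% of all genes). With gene starts only, over the 66 members with a promoter entry, 0 and 3 were near a C/EBP beta peak after vehicle and dDAVP (0.37% and 4.14%). With CREB1 peaks of at least the median width, 8 members were near a peak after vehicle and 3 after dDAVP (2.6% and 1.35%), and with C/EBP beta peaks of at least the median score, 0 and 2 (0.25% and 2.73%). The core TGACG was in 26 of 66 members in place of 3 with the full CRE, and TTGCGCAA in 0 in place of 5 with TTGCNNAA. The overlap that counts as shared changed neither count of members found in both treatments.

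No paired analysis was possible because each group has 1 list without values per replicate, and leave-one-out values were not computed for the same reason. Depth is unknown, which limits what a missing peak shows. Width served as the stricter CREB1 criterion, since those lists hold no score.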
